A study of Mus musculus with 32 samples.

Results

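The H/ACA snoRNA and Cajal body RNA genes were taken from the RNA-seq of mouse embryonic stem cells (mESCs), as all gene symbols that begin with Snora or Scarna and a digit. The rule found 45 of 24028 symbols, 36 of them Snora and 9 of them Scarna, on 46 table lines, since Snora19 was listed on more than one line and its values were summed. One library was made from WT mESCs and one from mESCs labelled Eed -/-, a genotype meant to lack EED, the subunit of the Polycomb complex PRC2 that binds methylated H3K27. Both were labelled as strain TT2 and were grown without feeder cells on gelatinized plates in medium with serum and LIF. The strain label of the Eed -/- library differed from that of the Eed -/- samples of other assays in the series. Total RNA was depleted of ribosomal RNA, fragmented and primed with oligo dT and random primers, and strand-specific libraries of fragments of 200 to 500 bp were sequenced. Levels were deposited as FPKM, fragment numbers scaled by transcript length and by library depth. With 1 library per genotype no test between genotypes was possible, and no p-value is given.

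Small nucleolar RNAs (snoRNAs) guide the chemical modification of other RNAs. H/ACA snoRNAs pair with ribosomal RNA and direct the enzyme dyskerin (Dkc1) to turn a uridine into pseudouridine, whereas C/D box snoRNAs direct 2′-O-methylation. Small Cajal body RNAs (scaRNAs) do the same for spliceosomal snRNAs in the Cajal body, and can be of the H/ACA type, of the C/D type or of both. An H/ACA RNA folds into hairpins followed by an H box and an ACA box, the latter next to its 3′ end. Most vertebrate H/ACA snoRNAs are cut out of introns of host transcripts after splicing.

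Positions are given on NCBIM37, the assembly also called mm9, to which the authors mapped their reads, with GENCODE vM1 as annotation. It placed 41 of the 45 members, and Snora15, Snora19, Snora24 and Snora26 were not matched. The letters ACA stood exactly 3 bases before the 3′ end in 28 of 41 members (68.3%), against 0 of 65 Snord genes (0.0%), 14 of 530 Mir genes (2.6%) and 1 of 82 windows of member length 1000 bases to either side (1.2%). The H box letters ANANNA began in the middle one of 3 equal parts of 35 of 41 members (85.4%) and also of 56.1% of those windows. Letters of the C/D type, TGATGA anywhere together with CTGA in the last 12 bases, were found in 5 of 41 members (12.2%), in 39 of 65 Snord genes, and in 0.0% of the windows and of the Mir genes. Only the gene's own strand was searched. These 5 members were Scarna2, Scarna6, Scarna9, Scarna10 and Scarna17, so the set is not purely of the H/ACA type. None of the 5 had ACA at that place before the annotated 3′ end, and 8 other members had neither pattern at their annotated ends. ACA was not searched for elsewhere, so an H/ACA part inside a scaRNA would not be seen.

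The following sequences show the members on which the comparisons turn, as in the NCBIM37 genome and 5′ to 3′ on the gene's own strand. The first pair are scaRNAs with C/D letters, and capitals mark TGATGA and CTGA. Scarna2 lies at chr3:108357256-108357669 on the minus strand outside any annotated host, and its last 100 bases (chr3:108357256-108357355) are shown. Scarna6 (chr1:89681131-89681395, plus strand) lies in an intron of Atg16l1, an autophagy gene.
Scarna2: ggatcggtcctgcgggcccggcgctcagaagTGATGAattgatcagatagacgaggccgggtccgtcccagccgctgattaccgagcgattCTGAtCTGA
Scarna6: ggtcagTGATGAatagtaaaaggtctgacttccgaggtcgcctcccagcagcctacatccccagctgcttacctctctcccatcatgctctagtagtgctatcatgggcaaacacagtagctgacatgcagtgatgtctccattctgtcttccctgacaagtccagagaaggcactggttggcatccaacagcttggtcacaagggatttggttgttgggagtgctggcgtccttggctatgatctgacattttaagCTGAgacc

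The next group have the ACA box, and capitals mark it and, where present, the first ANANNA of the middle part. Scarna13 (chr12:106269285-106269559, minus strand) gave the most fragments of all members and had no H box letters there. Snora61 (chr4:131866155-131866284, plus strand, in Snhg12) and Snora33 (chr10:23505153-23505281, minus strand, in Rps12) had the highest mean FPKM of the Snora members.
Scarna13: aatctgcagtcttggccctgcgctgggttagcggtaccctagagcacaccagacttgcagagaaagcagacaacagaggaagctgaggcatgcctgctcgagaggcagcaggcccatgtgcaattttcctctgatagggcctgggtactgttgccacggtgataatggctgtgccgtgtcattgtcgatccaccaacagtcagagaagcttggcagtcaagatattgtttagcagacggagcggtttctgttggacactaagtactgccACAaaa
Snora61: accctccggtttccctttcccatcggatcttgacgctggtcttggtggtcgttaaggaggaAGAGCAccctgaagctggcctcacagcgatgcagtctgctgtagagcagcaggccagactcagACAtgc
Snora33: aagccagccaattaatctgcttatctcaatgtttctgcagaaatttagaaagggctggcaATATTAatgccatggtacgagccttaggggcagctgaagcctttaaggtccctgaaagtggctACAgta

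Snora7a (chr6:115757993-115758132, minus strand, in Rpl32) and Snora70 (chrX:71517823-71517959, plus strand, in Rpl10) had among the lowest ratios between the libraries, and Snora43 (chr2:26493367-26493505, minus strand, in Snhg7) and Snora75 (chr1:88247744-88247876, minus strand, in Ncl) among the highest. Snora5c (chr11:6520322-6520457, minus strand, in Tbrg4) was listed at 0 in WT.
Snora7a: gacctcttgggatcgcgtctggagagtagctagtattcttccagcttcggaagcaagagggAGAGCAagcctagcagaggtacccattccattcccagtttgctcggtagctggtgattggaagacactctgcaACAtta
Snora70: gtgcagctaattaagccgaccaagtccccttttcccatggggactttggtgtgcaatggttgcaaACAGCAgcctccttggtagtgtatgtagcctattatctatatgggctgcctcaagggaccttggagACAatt
Snora43: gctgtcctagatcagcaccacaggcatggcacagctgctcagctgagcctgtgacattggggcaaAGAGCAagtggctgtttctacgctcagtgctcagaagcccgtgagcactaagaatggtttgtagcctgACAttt
Snora75: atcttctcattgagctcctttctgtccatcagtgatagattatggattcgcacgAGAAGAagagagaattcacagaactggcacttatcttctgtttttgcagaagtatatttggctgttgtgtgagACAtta
Snora5c: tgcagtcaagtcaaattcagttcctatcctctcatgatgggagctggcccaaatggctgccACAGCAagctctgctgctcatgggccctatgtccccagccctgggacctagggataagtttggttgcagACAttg

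The targeted gene was examined first. Eed itself was listed at 63.0 FPKM in WT and 70.9 FPKM in the other library, so its RNA was not lower there, and the sample is called below the library labelled Eed-/-. Which exons of Eed the allele affects was not analysed here. All 10 mESC markers were above 0 in both libraries, with summed levels of 1153 FPKM in WT and 1370 FPKM in the library labelled Eed-/-. Singly they went in both directions by deposited FPKM. Nanog, Zfp42 (131 and 272 FPKM), Klf4, Dppa5a and Fgf4 were higher, and Sox2, Esrrb, Tdgf1, Utf1 and Dppa4 (47.0 and 26.9 FPKM) were lower. Of 8 markers each, primitive endoderm genes summed to 9.57 and 37.0 FPKM, mostly Lama1, with Afp and Ttr at 0 in both. At low levels, Gata4 (0.431 and 1.35 FPKM), Sox7 (0.314 and 1.15 FPKM) and Sox17 (0 and 0.449 FPKM) were also higher. Dab2 was nearly equal (0.499 and 0.515 FPKM) and Foxa2 was lower (0.0731 and 0 FPKM). Trophoblast genes summed to 64.8 and 25.0 FPKM, mostly Tfap2c (39.8 and 9.21 FPKM), with Elf5 at 0 in both, whereas Eomes was higher (0.478 and 1.93 FPKM). Fibroblast genes summed to 57.6 and 40.7 FPKM, mostly Fn1 (55.9 and 33.5 FPKM), with Dcn at 0 in both, whereas Thy1 was higher in the library labelled Eed-/- (0.976 and 6.97 FPKM, a ratio of 7.14 with a counting interval of 3.72 to 14.8). The 6 markers of unlike cell types summed to 95.5 and 74.1 FPKM, nearly all of it Tubb3, with Hbb-b1, Ptprc and Alb at 0 in both. The part of other cell types in the differences below was not tested, and in bulk RNA fewer cells of a type and less RNA per cell cannot be told apart.

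The members held most of the summed FPKM of each library, 74.0% in WT against 58.7% in the library labelled Eed-/-. Within the members, Scarna2 and Scarna10 together made up 97.4% of this sum in WT against 87.8% in the other library. Scarna2, which guides the modification of U2 snRNA, was listed at 9203200 FPKM in WT and 2533180 FPKM in the library labelled Eed-/-. Scarna10 was listed at 1010140 FPKM and 973928 FPKM. At the other end, Snora23, which guides pseudouridylation of ribosomal RNA, was the lowest member at 1 FPKM or more, with 22.02 FPKM in WT and 19.97 FPKM in the other library. Such values cannot be read as shares of the library. Multiplied by the 61 bases of its RefSeq transcript, the WT value of Scarna2 alone would stand for 56.1% of all fragments, whereas 114 fragments of about 7170000 were recovered for it (below).

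The level of a member was closely tied to its length, as the plot of FPKM against transcript length shows. In the library labelled Eed-/-, 4 members with RefSeq transcripts of 61 to 71 bases were above 0 (Scarna2, Scarna17, Snora61 and Scarna10). They had the 4 highest values among the members there. For 4 members the RefSeq transcript was under 60% of the GENCODE gene: Scarna2 (61 against 414 bases), Scarna10 (71 against 325), Snora61 (62 against 130) and Snora20 (61 against 128). The FPKM of short RNAs moved in steps. Among members of equal RefSeq length, the deposited value of Scarna3a was 2.00 times that of Scarna8 in WT, that of Snora64 was 12 times that of Snora44 in WT, and that of Scarna17 was 4.00 times that of Snora61 in the library labelled Eed-/-. Snora7a stood to Snora70 as 8 to 7 in WT (a ratio of 1.14), and both were listed at 213.222 FPKM in the other library. Of 7 such pairs, the one that gave no simple ratio was Snora62 over Snora24 in WT (3.34). These are the ratios that whole numbers of fragments would give.

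**Figure D1:**
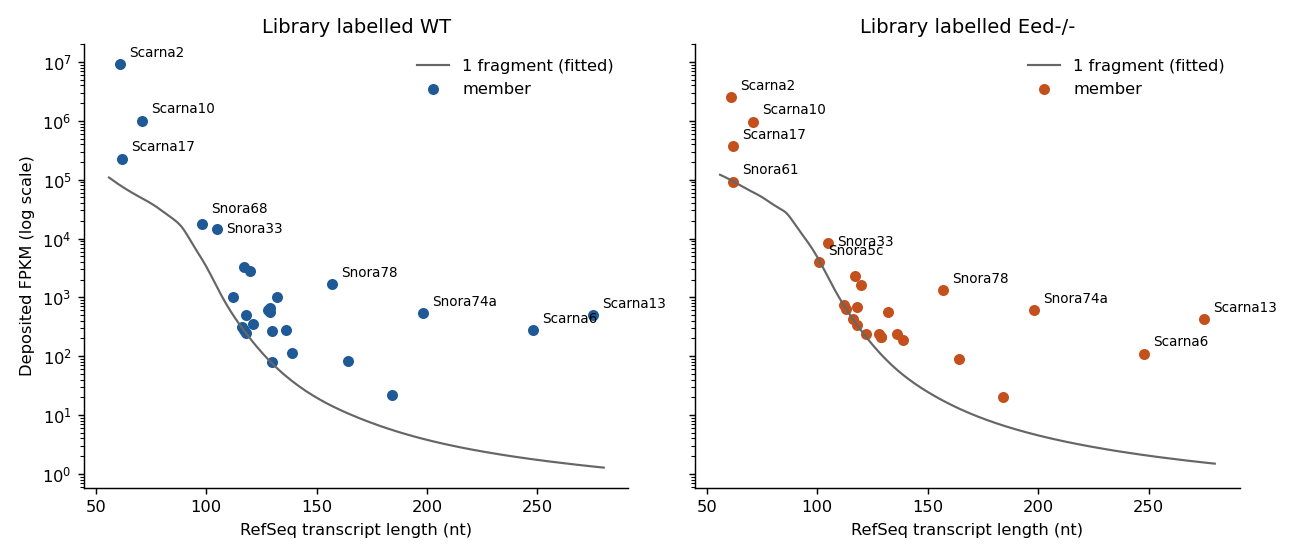
Deposited FPKM (log scale) of the members at 1 FPKM or more against RefSeq transcript length in bases, for the library labelled WT (left) and the library labelled Eed-/- (right). Each point is 1 member and the line is the fitted value of a single fragment, which falls from 76000 FPKM at 62 bases to 1.34 FPKM at 275 bases in WT. Many members of 98 to 130 bases lie on or just above the line.

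The value of a single fragment at each length was therefore fitted on other short RNAs, 36 for WT and 35 for the library labelled Eed-/-, and the members' values were divided by it. In WT a fragment was worth 76000 FPKM at 62 bases, 4513 FPKM at 98 bases, 247 FPKM at 118 bases, 81.15 FPKM at 129 bases and 1.34 FPKM at 275 bases. In the library labelled Eed-/- it was worth 93190, 6493, 341.5, 106.5 and 1.56 FPKM at these lengths. Over the members' lengths a fragment was worth 1.11 to 1.47 times as much FPKM in the library labelled Eed-/- as in WT. The depth, from steps of low values in long genes, was about 7170000 fragments for WT and 6370000 for the library labelled Eed-/-. Of the 21 members with 1 to 20 fragments in WT, 18 came within 0.1 of a whole number, and the others were Snora33 (9.78), Snora62 (3.58) and Snora81 (7.85). Of 21 such members in the other library, 20 did, and the exception was Snora28 (1.12). The members themselves had no part in the fit.

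On this scale the members rested on few fragments. They held about 1031 fragments in WT (95% Poisson interval 969 to 1096) and 638 in the library labelled Eed-/- (589 to 689). Per 1000000 fragments of the library, which is called relative abundance here, they held 144 and 100.0. Intervals cover counting error alone, and PCR copies without molecular identifiers are not independent molecules. Scarna13, Scarna6, Snora74a, Snora78, Scarna2 and Scarna10 held 88.8% of the members' fragments in WT against 90.6% in the other library. In contrast, 12 members had 1 to 4 fragments in WT and 16 did in the library labelled Eed-/-. Scarna13, an H/ACA RNA hosted by no annotated gene, had 372 and 277 fragments, although its FPKM (497 and 432) was far below that of Scarna17 (227555 and 370964), which had 3 and 4 fragments. Thus the order of the members by FPKM was not their order by fragments.

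**Figure D2:**
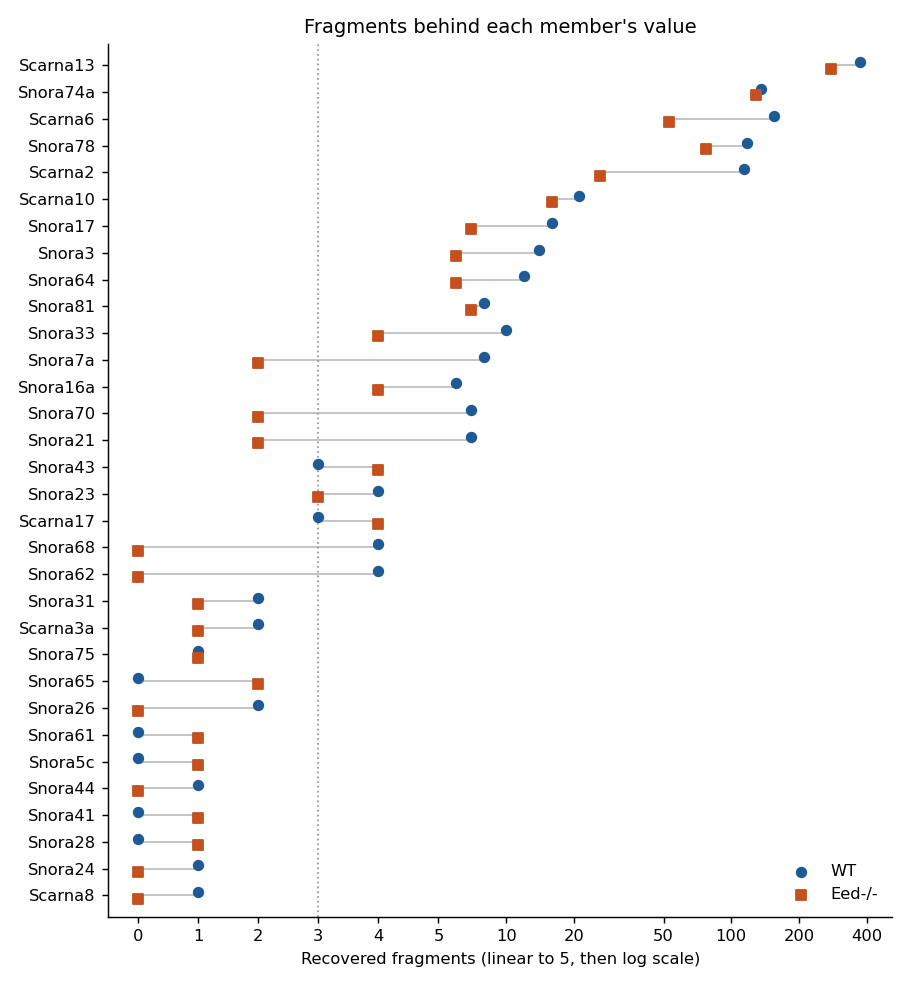
Recovered fragments, rounded to whole numbers, for the 32 members with at least 1 fragment, ordered by their total. Circles are WT and squares the library labelled Eed-/-, the horizontal axis is linear up to 5 and logarithmic beyond, and the dotted line marks 3 fragments. The lower part of the plot holds members with 4 fragments or fewer in each library, and in Scarna2 and Scarna6 the libraries lie far apart at high numbers.

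Differences between the libraries were computed as differences of log2(quantile-normalized FPKM + 1), with a 2-fold threshold, for genes with a mean of at least 0.1 FPKM. Of the 45 members 32 passed this minimum, and in the library labelled Eed-/- 11 of them lay at least 2-fold below WT and 6 at least 2-fold above. Over all 14835 genes that passed, 3.98% were lower and 3.8% higher by this rule. Of the 11 lower members 4 were listed at 0 in that library, and of the 6 higher members 5 were listed at 0 in WT, which leaves 7 and 1 with values above 0 in both. The 7 include Snora24 and Snora26, whose values in the library labelled Eed-/- stood for no fragment. The share of members past the threshold was above that of all genes in both directions, and all of these members but Scarna6 and Snora33 had 8 fragments or fewer in each library, as described above. For members listed at 0 in 1 library the call was fixed in advance. A single fragment was worth far more than the pseudocount of 1, for example 247 FPKM at 118 bases in WT. The higher share is therefore not read as a result about the members. The median difference of the 32 members was -0.19, against 0.01 for all genes. It depended on the scaling, with -0.50 against -0.09 for the FPKM as deposited and -0.34 against 0.02 after scaling to the median ratio, and both medians were 0 with no filter on low values. Quantile normalization gave the highest symbol of each library the same value, so Scarna2 had a difference of 0.00 on this scale, although its deposited FPKM was 3.63-fold lower.

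The 23 members above 0 in both libraries had a median log2 ratio of deposited FPKM of -0.52, and 18 were lower and 5 higher in the library labelled Eed-/-. Over all 14616 genes above 0 in both, the median was -0.13 and 57.2% were lower. For 2 members the value in the library labelled Eed-/- was so near 0 that it stood for no fragment. These were Snora24, with 79.7 FPKM or 1 fragment in WT, and Snora26, with 349 FPKM or 2 fragments in WT. Their fitted ratios have no meaning as folds. Of the other 21 members, 16 were lower and 5 higher by deposited FPKM. After quantile normalization 12 of these 21 members were lower, 6 higher and 3 equal, and after scaling to the median ratio 14 were lower and 7 higher.

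The counting error was set beside each ratio as an exact (Clopper-Pearson) 95% interval, which leaves out the spread between cultures. The interval of Scarna2 and that of Scarna6 left out a ratio of 1, and those of the other 19 members with more than 1 FPKM in both libraries did not. Scarna2 had 114 fragments in WT against 26, a ratio of 0.275 (0.174 to 0.428), or 3.63-fold lower (2.34 to 5.75). Scarna6 was listed at 274 FPKM in WT and 110 FPKM in the library labelled Eed-/-, from 155 and 53 fragments, a ratio of 0.404 (0.289 to 0.554). Both were also lower by relative abundance, which takes no account of length, with 16.0 against 4.07 for Scarna2 and 21.6 against 8.32 for Scarna6. The intervals of the ratio of relative abundances were 0.161 to 0.396 and 0.276 to 0.529. Both carry the C/D letters shown above. With 1 library per genotype these are differences between libraries and not between genotypes.

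The other well-covered members differed less. Scarna13 had 497 FPKM in WT and 432 FPKM in the library labelled Eed-/-, a ratio of 0.869 (0.743 to 1.02). Snora78, hosted by Snhg9, had 1661 and 1345 FPKM from 117 and 77 fragments, a ratio of 0.810 (0.601 to 1.09). Snora74a, hosted by Snhg4, had 537 and 607 FPKM from 136 and 129 fragments, a ratio of 1.13 (0.882 to 1.45). Scarna10, hosted by Ncapd2, had 21 and 16 fragments and a ratio of 0.964 (0.471 to 1.94). By relative abundance the intervals of Scarna13 (0.715 to 0.982) and Snora78 (0.548 to 0.996) also left out 1, which made 4 members in place of 2. As far as counting goes, the FPKM intervals of Scarna13, Snora78 and Snora74a held no 2-fold difference, and that of Scarna10 did.

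For the remaining members the fragments could not show a difference. The lowest ratios after Scarna2, Snora24 and Snora26 were those of Snora7a (649 FPKM in WT and 213 FPKM in the library labelled Eed-/-), Snora70 (568 and 213 FPKM) and Snora21 (621 and 234 FPKM). Snora7a had 8 and 2 fragments, and Snora70 and Snora21 had 7 and 2 each. The interval of Snora7a ran from 0.0339 to 1.64, that of Snora70 from 0.0380 to 1.97 and that of Snora21 from 0.0382 to 1.98. At the other end, Snora43 (112 and 191 FPKM), Scarna17 and Snora75 (310 and 435 FPKM) had ratios of 1.70, 1.63 and 1.40. Snora43 and Scarna17 had 3 and 4 fragments, and Snora75 had 1 in each library. Snora75 is an example of how the scale acts, since the same single fragment was worth 1.40 times as much FPKM in the library labelled Eed-/-. Snora81 (84.1 and 90.8 FPKM) had 8 and 7 fragments.

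**Figure D3:**
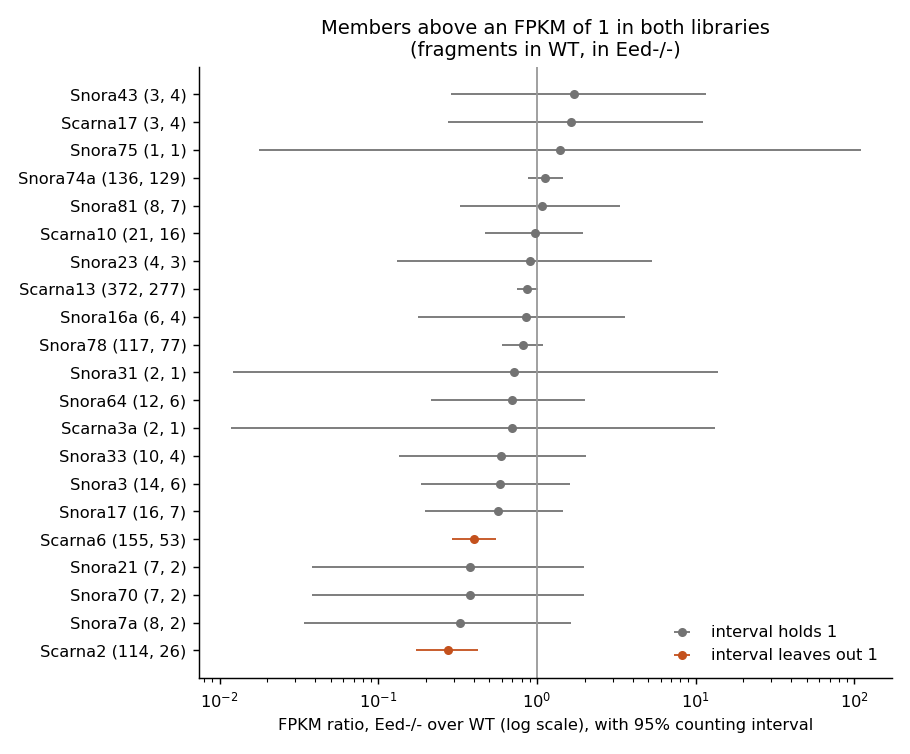
Ratio of deposited FPKM, library labelled Eed-/- over WT (log scale), for the 21 members above 1 FPKM in both libraries, with the fragments in each library in parentheses. Bars are exact 95% intervals for counting error alone. The intervals of Scarna2 and Scarna6 lie below 1, and the others cross it.

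Snora members with a high FPKM were mostly of this kind. Snora33 was listed at 14391 FPKM in WT and 8472 FPKM in the library labelled Eed-/-, from 10 and 4 fragments. Snora64, hosted by Rps2, had 3309 and 2306 FPKM from 12 and 6 fragments, and Snora3, hosted by Rpl27a, had 2765 and 1621 FPKM from 14 and 6 fragments. Snora31, hosted by Tpt1, had 1030 and 740 FPKM from 2 and 1 fragments. Each was lower in the library labelled Eed-/-, and each interval held 1. Taken over all 32 members with a fragment, 24 had fewer fragments in the library labelled Eed-/-, 7 had more and 1 had the same number, in a library with fewer fragments in all.

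Of the 45 members 13 (28.9%) were listed at 0 in both libraries, 5 in WT alone, 4 in the library labelled Eed-/- alone, and 23 in neither. Exactly 1 library listed 0 for 9 of the 45 members, and for 9.16% of all 24028 symbols. With values under 1 FPKM counted as 0 it was 11 members, since Snora24 and Snora26 were then included. Those at 0 in WT alone were Snora61 (92741 FPKM in the library labelled Eed-/-), Snora5c (4005), Snora65 (681), Snora41 (644) and Snora28 (241). Snora65 had 2 fragments there and the others 1 each. Those at 0 in the library labelled Eed-/- alone were Snora68 (17669 FPKM in WT), Snora44 (276), Snora62 (266) and Scarna8 (246). Snora68 and Snora62 had 4 fragments in WT (3.92 and 3.58 before rounding), and Snora44 and Scarna8 had 1 each. A count of 0 allows up to 3 fragments, and in 0 of these 9 members did the value above 0 exceed 3 fragments' worth of FPKM in the library listed at 0. No fold is therefore given, and a difference was not detectable at this depth. Snora61, Snora44 and Snora16a share the host Snhg12, and the first was at 0 in WT, the second at 0 in the library labelled Eed-/-, and the last at 277 FPKM (6 fragments) and 237 FPKM (4 fragments).

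For the members at 0 in both libraries the limit set by 3 fragments was high. It ran from 161 FPKM (Snora52) to 326700 FPKM (Snora19) in WT and from 208 to 363600 FPKM in the library labelled Eed-/-, over the 12 such members with a transcript of at least 53 bases. Scarna9, whose RefSeq transcript has 42 bases, lay outside the range in which a step was fitted. Snora20, hosted by the chaperonin gene Tcp1, could have stood at 241320 FPKM in WT without 3 fragments being seen. Absence of these RNAs from the cells therefore cannot be read from their zeros. Members at 0 in both had a median RefSeq length of 116 bases, against 129 bases for those above 0 in both.

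The nearest classes of small RNA were set beside the members. Of the C/D box snoRNAs (Snord), 45 of 69 (65.2%) were listed at 0 in both libraries, against 13 of 45 members, and 9 of 69 (13.0%) were at 0 in exactly 1. Their median RefSeq length was 68 bases, against 119 bases for the members. Of miRNA genes (Mir) 1039 of 1081 (96.1%) were at 0 in both. Sums were compared by relative abundance, which takes no account of length. Over the members' lengths a fragment was worth 1.11 to 1.47 times as much FPKM in the library labelled Eed-/-. A ratio of 1 is therefore not what equal FPKM would give, and for most members that value lies below 1. Snora64, for example, had a ratio of 0.564 by relative abundance and of 0.697 by FPKM. Snord genes had a summed relative abundance of 14.9 in WT against 10.8 in the library labelled Eed-/-, a ratio of 0.726 (0.528 to 0.992). The Mir sum moved the other way, with 21.8 against 95.4, a ratio of 4.38 (3.67 to 5.26). This rise lay in Mir6236, which had 108 and 581 of the 156 and 608 Mir fragments. The other Mir genes together had fewer fragments in the library labelled Eed-/- than in WT. Of the 14 Mir genes above 0 in both libraries, 8 were lower by deposited FPKM and 6 higher, with a median log2 ratio of -0.46. For Snord genes above 0 in both, 11 were lower and 4 higher, with a median of -0.58, against -0.52 for the members. The members, at 144 and 100.0, had a ratio of 0.696 (0.630 to 0.769). Without Scarna2 and Scarna6, the members' ratio was 0.826 (0.739 to 0.922). By box, the 28 members with an ACA box had 572 and 394 fragments, a ratio of relative abundances of 0.775 (0.680 to 0.883), and without Scarna13 a ratio of 0.658 (0.520 to 0.831). The 5 members with C/D letters had 293 and 99 fragments, a ratio of 0.380 (0.300 to 0.479), and without Scarna2 and Scarna6 they had 24 and 20 fragments, a ratio of 0.938 (0.491 to 1.77). The 8 members with neither pattern, mostly Snora74a, had 163 and 145 fragments, a ratio of 1.00 (0.795 to 1.26).

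**Figure D4:**
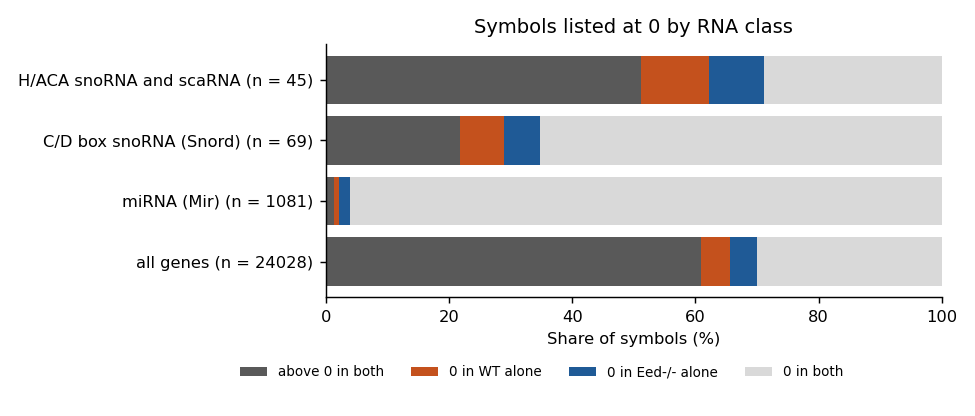
Share of symbols (%) listed above 0 in both libraries, at 0 in WT alone, at 0 in the library labelled Eed-/- alone, or at 0 in both, for 45 H/ACA snoRNA and scaRNA genes, 69 Snord genes, 1081 Mir genes and all 24028 symbols. The members resemble all genes in the share at 0 in both (28.9% and 30.0%), and Snord and Mir genes are mostly at 0 in both.

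Longer small RNAs that are not members, for which the same reading mostly gives many fragments, were also compared. Rpph1, the RNA of RNase P, had 53833 FPKM in WT and 18124 FPKM in the library labelled Eed-/-, a ratio of 0.337. Rmrp, the RNA of RNase MRP, had 27647 and 25507 FPKM, a ratio of 0.923. Terc, the telomerase RNA, which carries an H/ACA domain and binds the same core proteins, had 586 and 418 FPKM from about 941 and 585 fragments, a ratio of 0.713 (0.642 to 0.791). Small RNAs other than the members therefore also differed between these libraries, in unequal amounts, and the cause was not tested.

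Of the 41 placed members 38 lay within a gene on the same strand, in 34 different hosts, 27 of them within an intron and 11 overlapping an exon of at least 1 annotated transcript of the host. Ribosomal protein genes hosted 11 members and Snhg genes, non-coding hosts of snoRNAs, hosted 7. Scarna2, Scarna13 and Scarna17 had no host. Of 33 hosts with a value 31 passed the minimum, with a median difference of 0.07, against 0.01 for all genes. Of these 31 hosts 1 was at least 2-fold higher and 1 at least 2-fold lower. Among all genes 3.8% were higher and 3.98% lower, so the hosts did not stand out. The hosts past 2-fold were Rpl39 (higher) and Rab3gap2 (lower). Their members Snora69 and Snora36b were at 0 in both libraries. The host of Scarna6, Atg16l1, had 30.2 FPKM in WT and 15.7 FPKM in the library labelled Eed-/-, a difference of -0.73, and was lower like its member. By contrast, Rpl32 (831 and 1034 FPKM) and Rpl23 (44.0 and 54.5 FPKM) were higher where Snora7a and Snora21 were lower. Of 18 members above 0 in both with a host value, 13 were lower by deposited FPKM with a host whose quantile-normalized difference was not 0, 10 of these differences being above 0 and 3 below, and the 4 higher members all had a host difference above 0. With the host FPKM as deposited, 8 of the lower members had a host above 0 and 5 below, and the higher members had 2 and 2. The last of the 18 was Snora78, whose host Snhg9 was listed at 0 in both libraries although the member had 117 and 77 fragments. Htr2c, a serotonin receptor gene and host of Snora35, was also at 0 in both, whereas Tcp1 (253 and 216 FPKM) and Rplp2 (211 and 121 FPKM) were well expressed and their members Snora20 and Snora52 were at 0.

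Near-identical copies could share fragments with a member. Of 39 members aligned to the genome, 8 had at least 1 other copy at 95% identity over 90% of the length, up to 3 copies for Snora65. The others were Snora3, Snora5c, Snora21, Snora30, Snora41, Snora68 and Snora81. Scarna2, Scarna6, Scarna13, Scarna10 and Snora78 had none.

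A list of 39 genes in 5 groups was examined: core proteins, assembly factors, Cajal body proteins, telomerase and RNA 3′ end maturation (which includes the RNA Terc), and pseudouridine synthases that work without a guide RNA. At 2-fold, 1 of the 39 lay above WT and 1 below, against 3.8% and 3.98% of all genes. All 4 core proteins passed the minimum and 0 reached 2-fold. Dkc1, the pseudouridine synthase of the complex, had 58.0 FPKM in WT and 72.7 FPKM in the library labelled Eed-/-, a difference of 0.55. Gar1, which helps release the substrate, had 33.3 and 48.6 FPKM (0.74), and Nop10, which joins dyskerin to the guide, had 126 and 155 FPKM (0.55). Nhp2, which binds the guide RNA, had 415 and 387 FPKM, a difference of 0.11 after quantile normalization and of -0.10 with the FPKM as deposited. The first 3 had deposited ratios above 1 whose counting intervals left out 1, for example 1.46 (1.11 to 1.91) for Gar1, and that of Nhp2 left out 1 in the other direction, 0.931 (0.875 to 0.990).

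The 6 assembly factors had a median difference of -0.42, and 0 of them reached 2-fold. Ruvbl2, an ATPase of the R2TP complex that loads dyskerin, had 188 FPKM in WT and 99.8 FPKM in the library labelled Eed-/-, a deposited ratio of 0.530 (0.492 to 0.571). Its partner Ruvbl1 had 19.5 and 12.7 FPKM, Pih1d1 had 38.4 and 22.4 FPKM, and Rpap3 had 33.5 and 21.8 FPKM. Naf1, which occupies the place of Gar1 during assembly, had 8.32 and 5.57 FPKM. The intervals of these 5 lay below 1 on the deposited scale, on which the median of all genes was itself lower. Shq1, the chaperone of free dyskerin, had 17.5 and 16.9 FPKM, and its sign depended on the scaling.

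Among the 10 Cajal body proteins the differences ran from -0.61 to 0.74 and 0 reached 2-fold. Coil, the scaffold of the Cajal body, had 39.4 FPKM in WT and 37.2 FPKM in the library labelled Eed-/-, and Wrap53, which brings scaRNAs to the Cajal body, had 22.2 and 15.8 FPKM. Of the 7 genes of telomerase and RNA 3′ end maturation, 0 reached 2-fold and 6 had a difference below 0. Parn, an exonuclease that trims H/ACA RNA ends, had 19.7 and 11.3 FPKM, a difference of -0.59, and Papd5, which adds the short tails that Parn removes, had 18.9 and 14.1 FPKM (-0.25). Tert, the telomerase protein, had 5.07 and 3.29 FPKM (-0.40).

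The genes past 2-fold were both among the 12 stand-alone pseudouridine synthases, which are not part of the H/ACA complex. Trub1 had 9.27 FPKM in WT and 0.487 FPKM in the library labelled Eed-/-, from about 257 and 12 fragments, a difference of -2.71 and a deposited ratio of 0.0525 (0.0268 to 0.0935). Rpusd1 had 1.90 and 4.68 FPKM from about 21 and 45 fragments, a deposited ratio of 2.46 (1.41 to 4.27) and a difference of 1.06. On the log2(FPKM + 1) scale without quantile normalization its difference was 0.97, just short of 2-fold, since the pseudocount of 1 lowers the change of a gene at this level. The other 10 lay between -0.31 and 0.49. Trub1 thus stood far below the rest of its list, with no such difference in its relative Trub2 (8.12 and 8.11 FPKM).

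**Figure D5:**
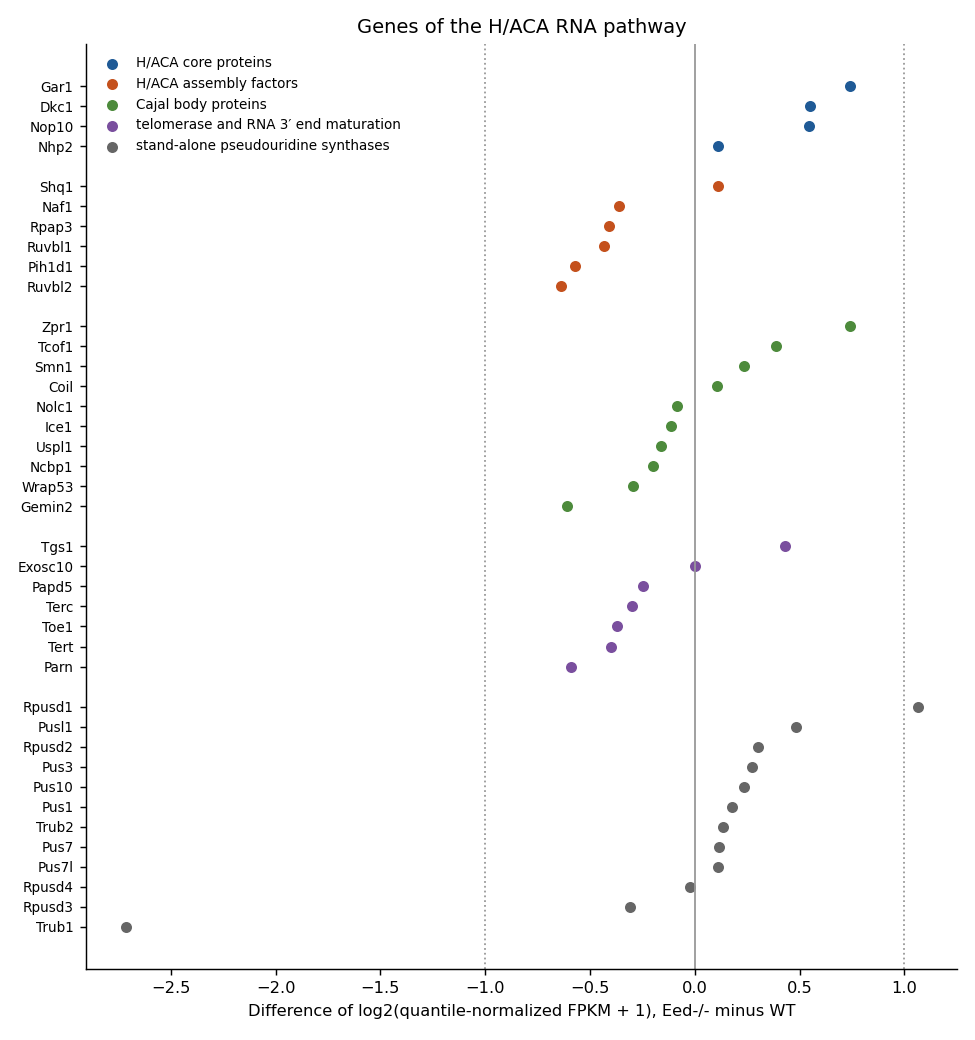
Difference of log2(quantile-normalized FPKM + 1), library labelled Eed-/- minus WT, for 39 genes of 5 groups, each point 1 gene. Dotted lines mark 2-fold. Trub1 (-2.71) and Rpusd1 (1.06) lie beyond them, the 4 core proteins lie between 0.11 and 0.74, and 5 of 6 assembly factors lie below 0.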

How the data were processed

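RNA-seq libraries of WT and Eed-/- mESCs (1 each) were analysed. The authors mapped reads to mm9 with TopHat (TopHat2 2.0.11 and Bowtie2 2.2.2 in the submitters' processing notes) and used Cufflinks (2.2.1 there). The deposited values are FPKM. For display the study quantile-normalized and log-transformed them; the deposited columns, whose highest values differ, are not quantile-normalized. The annotation and Cufflinks options are not given in the sources used here, and the other assays were not analysed here. The correction that Cufflinks makes for short transcripts sets the scale of these RNAs.

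The members and gene lists were chosen with earlier results of these data known. Values of repeated symbols (24525 lines, 24028 symbols) were summed and quantile-normalized, and differences of log2(FPKM + 1) were computed. Named were all scaRNAs, the 8 Snora members with the highest mean FPKM, the 6 largest and 6 smallest ratios (Scarna10, with a ratio below 1, is among the largest), up to 5 members at 0 in each library, their hosts (1 is not reported here) and the listed genes.

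The value of 1 fragment was fitted with a smooth fragment length distribution to non-member short RNAs, whose fragment numbers were set by hand after their values were seen. The fitted FPKM of these RNAs deviated by at most 0.744% in WT against 1.63% in the other library. Lengths came from RefSeq on GRCm38.p6, whose coordinates were not used. Depth came from genes with 1 transcript of at least 1000 bases, in which 79.5% of 840 low values (WT) and 81.3% of 947 (library labelled Eed-/-) came to a whole number within 0.1. The depth was chosen to make this share largest, so the share is no check of it. Fragments of longer genes are approximate. The computations were tested on simulated data, in which the fragment numbers of the reference RNAs were given. Their setting by hand was therefore not tested. Copies were found with BLAST 2.17.0, and the scripts ran in Python 3.11.15 with scipy 1.17.1, numpy 2.4.6, matplotlib 3.10.9 and pandas 2.3.3.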

Additional observations from a re-analysis of the deposited data

How the results depend on the processing

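The alternatives were the FPKM as deposited, scaling to the median ratio, quantile normalization without small non-coding RNAs, pseudocounts of 0.1, 0.01 and 100, no filter or a mean of at least 1 FPKM, repeated symbols left out, and a 3-fold threshold. Relative abundance (fragments per 1000000), a minimum of 10 fragments, members left out and mean fragment lengths of 160 and 190 were chosen after seeing the data. Of 48 alternative values of the main results, 45 stayed within 1.5 times the count or within the interval of the members' median. Some of these values could not move. A fold threshold has no part in a median, and all members that passed the minimum also had a mean above 1 FPKM. Snora19, the only repeated member, was at 0 in both libraries. The interval of the median was also wide, since medians of -0.50 and 0 counted as within it, beside -0.19. The number of members at least 2-fold lower was 7 with a pseudocount of 100 and 6 at 3-fold, against 11. The number of pathway genes at least 2-fold higher was 0 on the log2(FPKM + 1) scale of the FPKM as deposited, against 1, since the pseudocount of 1 held Rpusd1 (a deposited ratio of 2.46) to 0.97. Scarna2 had a log2 ratio of 0 after quantile normalization, against -1.86 as deposited. The median log2 ratio of members above 0 in both ran from -0.83 (relative abundance) to -0.20 (quantile-normalized). No paired analysis was possible because each genotype has 1 RNA-seq library, and the replicate numbers in the labels belong to other assays. The spread between cultures was not measured, and depth limits most members to a few fragments.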
